A study of Mus musculus with 2 samples.

Results

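The enzymes of fatty acid beta-oxidation were examined in the gastrocnemius, the large calf muscle, of aged mice. The set holds 34 genes, taken by symbol from the deposited gene tables, of 55536 genes in all. It covers the acyl-CoA synthetases Acsl3, Acsl5 and Acsl6, the carnitine acyltransferases, the enzymes that make and remove malonyl-CoA, the acyl-CoA dehydrogenases with their electron carriers, the trifunctional protein and the other matrix enzymes, the enzymes that handle double bonds, a peroxisomal thiolase and 3 thioesterases. All 34 symbols were found once in both libraries. Acsl1, another long-chain acyl-CoA synthetase of muscle, is not in the set and is given with the supply genes further on.

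Total RNA was sequenced from 2 libraries of 1 group. Both were labelled as gastrocnemius of a female B6Cast F1 mouse, the first-generation cross of C57BL/6J and CAST/EiJ, at 18 to 20 months of age, with no treatment named. Each was made from 300 ng of RNA with ERCC spike-ins, synthetic RNAs added in known amounts. No younger, male or treated group was analysed here, so the 2 replicates were set beside each other and nothing was compared between conditions. The labels call them biological replicates but give both the same donor identifier, so separate animals rest on the replicate and tissue sample labels alone.

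Beta-oxidation breaks fatty acids down to acetyl-CoA inside mitochondria. A fatty acid is first bound to coenzyme A, is carried across the inner membrane as a carnitine ester, and is then shortened in repeated rounds of dehydrogenation, hydration, a further dehydrogenation and thiolysis. Malonyl-CoA inhibits the carnitine palmitoyltransferase of the outer membrane and so sets the rate of entry. Skeletal muscle is a main site of this pathway, and oxidative fibres hold more of it than the fastest glycolytic fibres.

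Levels are given as TPM, a relative abundance that is corrected for transcript length and sums to the same total in each library, so genes can be set beside each other. Means are followed by the SD of the 2 libraries. The difference between replicates is given as the log2 ratio of replicate 2 over replicate 1, from counts scaled by TMM, and is therefore 1 library against 1, with no replicate check and no p-value. Its 95% interval covers counting error only. The expected counts of genes summed to 43722892 in replicate 2 and 38654555 in replicate 1.

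The genes of the trifunctional protein subunits, Hadha and Hadhb, lie head to head, and they are shown first because their products form 1 complex and their replicate ratios were close. Some members on different chromosomes were closer, such as Cpt1b and Eci1 with log2 ratios of 0.571 and 0.57. A link between gene position and ratio was not tested. Hadha ran at chr5:30118304-30155162 on the minus strand and Hadhb at chr5:30155248-30184593 on the plus strand of mm10, as annotated by GENCODE M21. The RefSeq start sites, on GRCm38.p6, were 273 bases apart. The 85 bases between the annotated ends of the genes, chr5:30155163-30155247, read along the strand of Hadhb, were 69.4% G and C and held 9 CpG sites. Capitals mark the 2 matches to the GC box GGGCGG.
Hadha-Hadhb: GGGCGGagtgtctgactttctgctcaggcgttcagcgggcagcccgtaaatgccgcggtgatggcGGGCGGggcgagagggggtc

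Etfb encodes the beta subunit of the electron transfer flavoprotein, and the 250 bases before its RefSeq start are shown because they held 2 kinds of match within a short stretch. They lie at chr7:43443822-43444071 on the plus strand of GRCm38.p6. Capitals mark 2 CCAAT boxes, both read as ATTGG on this strand, and 1 match to the core motif of nuclear respiratory factor 1 (NRF1).
Etfb: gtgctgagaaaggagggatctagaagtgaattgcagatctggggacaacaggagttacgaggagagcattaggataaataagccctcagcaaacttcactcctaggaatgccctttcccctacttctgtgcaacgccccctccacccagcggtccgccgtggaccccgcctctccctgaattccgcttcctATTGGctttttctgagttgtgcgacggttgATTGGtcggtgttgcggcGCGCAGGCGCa

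RefSeq promoter windows, from 250 bases before to 50 bases after a start, were at hand for 27 of the 34 genes, in 29 windows. Their median G and C content was 60.3%, against 52.7% over all 32851 windows, and the median number of CpG sites was 17 against 7. Motifs were searched on both strands. The windows of Hadha and Hadhb overlap by 228 bases, so a GC box they share was counted for both. The GC box GGGCGG was in 72.4% of the 29 windows, against 35.7% of all windows, and CCAAT was in 58.6%, against 37.4%. The motif TATAAA was in 3.45%, that of Acacb, against 13.6%. The NRF1 core was in 10.3%, those of Acad10, Etfb and Etfdh, against 4.6%. The nuclear receptor motif AGGTCA was in 20.7%, against 16.3%. Its extended form TNAAGGTCA, which contains that motif and is the element of the estrogen-related receptors, was in 3.45%, a window of Acsl6, against 1.28%. The direct repeat of AGGTCA with 1 base between its copies, which is bound by the PPAR receptors, was in none of the 29 windows and in 0.0396% of all. A match in these letters is not a measured binding site.

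RNA of every gene of the set was detected. All 34 genes stood at or above 1 TPM in both libraries, a mark passed by 45.4% of the 22015 nuclear protein-coding genes. The lowest were Acsl5, with 1.2 TPM in replicate 2 and 1.24 TPM in replicate 1, and Acot1. Most of the TPM of Acot1 was given by RSEM to the noncoding Acot1-204, and its protein-coding Acot1-201 had 0.12 TPM in replicate 2 and 0.3 TPM in replicate 1. At or above 10 TPM in both libraries were 27 genes, 14 were at or above 50 TPM, and 4 were at or above 100 TPM, namely Hadhb, Crat, Hadha and Acadm. By mean TPM, 24 of the 34 were among the top 10% of nuclear protein-coding genes, and the lowest, Acsl5, was at percentile 54.7. The summed level was 2169 TPM in replicate 2 and 1688 TPM in replicate 1, which was 0.475% of the nuclear protein-coding TPM in replicate 2 and 0.362% in replicate 1. The median gene stood at 55.4 TPM in replicate 2 and 43.7 TPM in replicate 1.

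**Figure D1:**
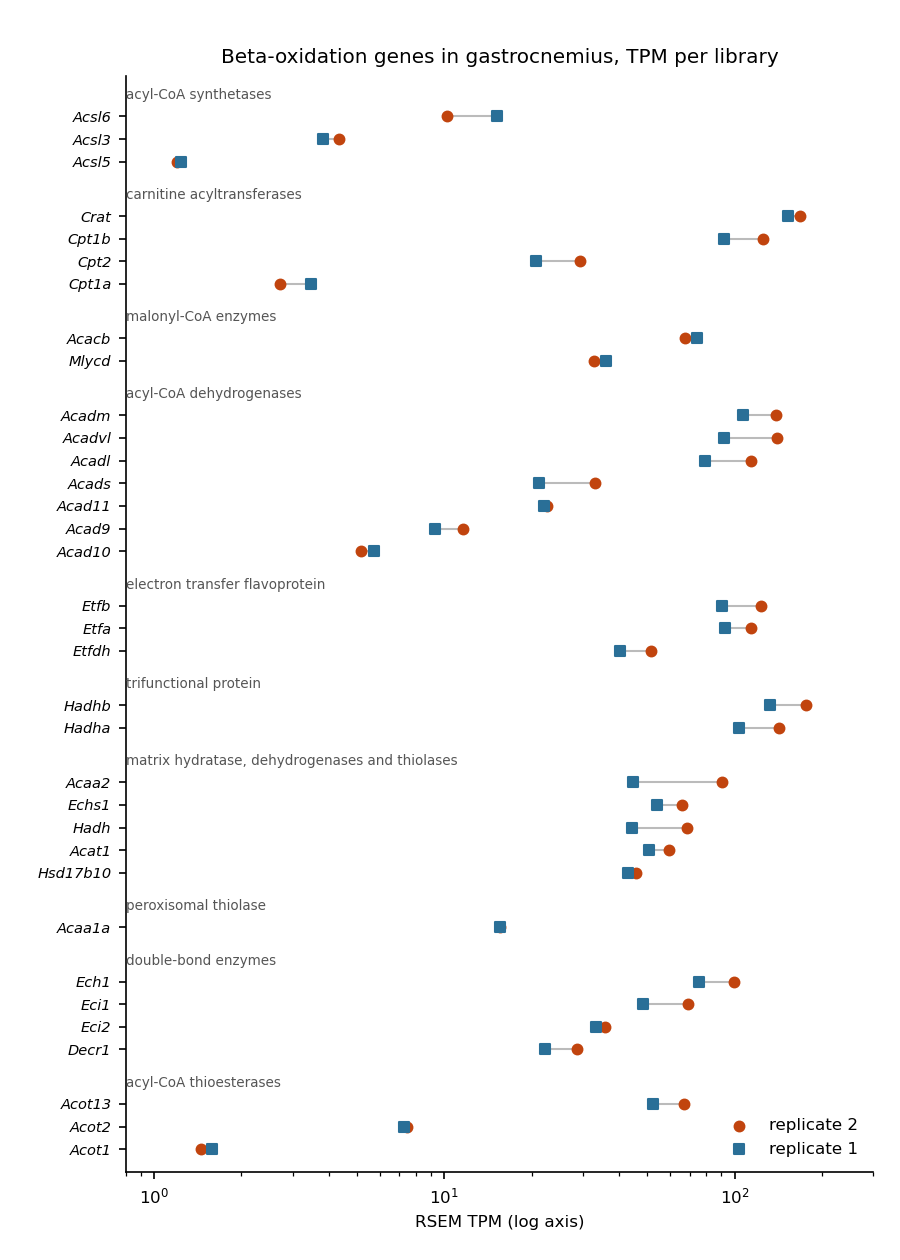
RSEM TPM of the 34 beta-oxidation genes on a log axis, grouped by role, with replicate 2 as circles, replicate 1 as squares and a line joining the 2 libraries of a gene. The highest point is Hadhb in replicate 2 at 176 TPM, and Acsl5 and Acot1 sit nearest to 1 TPM.

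Acyl-CoA synthetases bind fatty acids to coenzyme A, and the 3 in the set were low. Acsl6, known from brain for its use of polyunsaturated fatty acids, had 10.2 TPM in replicate 2 and 15.1 TPM in replicate 1. Acsl3, a synthetase of the endoplasmic reticulum and lipid droplets, had 4.33 TPM in replicate 2 and 3.81 TPM in replicate 1. Together with Acsl5 they made up 0.73% of the summed TPM of the set in replicate 2 and 1.2% in replicate 1.

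The carnitine acyltransferases were dominated by the muscle form and by the acetyl transferase. Crat, carnitine acetyltransferase, moves acetyl groups between coenzyme A and carnitine and had 168 TPM in replicate 2 and 153 TPM in replicate 1. Its mean of 160.2 ± 10.4 TPM (SD, n = 2) lay within the spread of that of Hadhb, 154.5 ± 31.0 TPM. By kallisto over all transcripts, Hadhb was the higher of the pair, at a mean of 289 TPM against 217 TPM for Crat. Over protein-coding transcripts only, kallisto put Crat higher, at 211 TPM in replicate 2 and 209 TPM in replicate 1. Hadhb then had 132 TPM in replicate 2 and 113 TPM in replicate 1. Cpt1b, the muscle carnitine palmitoyltransferase of the outer membrane, lies at chr15:89416405-89425863 and had 126 TPM in replicate 2 and 92.3 TPM in replicate 1. Cpt1a, the liver form, had 2.72 TPM in replicate 2 and 3.48 TPM in replicate 1. Cpt1b therefore took 97.9% of the summed TPM of Cpt1a and Cpt1b in replicate 2 and 96.4% in replicate 1. Cpt2, which re-forms acyl-CoA on the matrix side, had 29.4 TPM in replicate 2 and 20.6 TPM in replicate 1. Cpt1b stood at 4.27 times the TPM of Cpt2 in replicate 2 and 4.47 times in replicate 1.

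Of the malonyl-CoA enzymes, Acacb, the acetyl-CoA carboxylase at the mitochondrial surface that makes malonyl-CoA, had 67.3 TPM in replicate 2 and 74.3 TPM in replicate 1. Mlycd, the decarboxylase that removes malonyl-CoA, had 32.8 TPM in replicate 2 and 36.1 TPM in replicate 1. The TPM of Acacb was 2.05 times that of Mlycd in replicate 2 and 2.06 times in replicate 1, so this ratio was nearly the same in both libraries.

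The acyl-CoA dehydrogenases catalyse the first step of each round. They took the largest share of the summed TPM of any role, 21.4% in replicate 2 and 19.9% in replicate 1. However, they are also the role with the most genes, 7 of the 34, so this share does not mark high levels per gene. Their median gene stood at 27.5 ± 7.77 TPM, below that of the whole set at 49.5 ± 8.26 TPM (SD, n = 2). Acadm, the medium-chain enzyme, had 138 TPM in replicate 2 and 107 TPM in replicate 1. Acadvl, the very-long-chain enzyme of the inner membrane, had 139.8 TPM in replicate 2 and 91.8 TPM in replicate 1. Acadl, the long-chain enzyme, had 114 TPM in replicate 2 and 79.3 TPM in replicate 1. Over all transcripts, Acadl was below Acadm and Acadvl in each library, while the order of Acadm and Acadvl differed between libraries. For protein-coding transcripts the order depended on the estimator. By RSEM, Acadm-201 had 98.6 TPM in replicate 2 and 71.8 TPM in replicate 1, below Acadl-201 at 109 TPM and 79.3 TPM. By kallisto, coding Acadm had 151 TPM and 118 TPM, above Acadl at 131 TPM and 102 TPM. Acadl was then above Acadvl, at 97.8 TPM, in replicate 1. The means were 122.9 ± 21.99 TPM for Acadm, 115.8 ± 33.9 TPM for Acadvl and 96.7 ± 24.7 TPM for Acadl (SD, n = 2).

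Acads, the short-chain enzyme, was lower than the other chain-length forms in both libraries, with 33.0 TPM in replicate 2 and 21.2 TPM in replicate 1. Acadvl was 4.24 times Acads in replicate 2 and 4.33 times in replicate 1. Acad11, a less studied relative that acts on long-chain and hydroxylated acyl-CoA, had 22.67 TPM in replicate 2 and 21.98 TPM in replicate 1. Acad9, which is also an assembly factor of respiratory complex I, had 11.6 TPM in replicate 2 and 9.28 TPM in replicate 1. Acad10 was the lowest of the family, with 5.17 TPM in replicate 2 and 5.74 TPM in replicate 1.

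The electron transfer flavoprotein takes electrons from these dehydrogenases, and its subunits Etfa and Etfb were present at nearly equal levels. Etfb had 123 TPM in replicate 2 and 90.2 TPM in replicate 1, and Etfa had 113.9 TPM in replicate 2 and 92.9 TPM in replicate 1. The TPM of Etfb over that of Etfa was 1.08 in replicate 2 and 0.971 in replicate 1, so their order differed between libraries. Etfdh, the oxidoreductase that passes the electrons on to ubiquinone, had 51.5 TPM in replicate 2 and 40.3 TPM in replicate 1. Etfa stood at 2.21 times Etfdh in replicate 2 and 2.3 times in replicate 1.

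The trifunctional protein joins the hydratase, dehydrogenase and thiolase of long chains at the inner membrane. Hadhb, its thiolase subunit, had 176 TPM in replicate 2 and 133 TPM in replicate 1. Hadha, its hydratase and dehydrogenase subunit, had 142.7 TPM in replicate 2 and 104 TPM in replicate 1. The TPM of Hadhb over that of Hadha was 1.24 in replicate 2 and 1.28 in replicate 1. By kallisto, the other deposited estimate, that ratio was 1.92 in replicate 2 and 2.0 in replicate 1. Over all transcripts the direction was thus the same and the size depended on the estimator. However, the TPM of Hadhb included Hadhb-208, a retained intron of 507 bases. It had 56.2 TPM in replicate 2 and 36.9 TPM in replicate 1 by RSEM, and 189 TPM and 143 TPM by kallisto. Counts, not corrected for length, were higher for Hadha, 11704 against 8412 in replicate 2 and 7579 against 5791 in replicate 1. Which subunit had more coding RNA was therefore not settled.

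The soluble matrix enzymes serve the shorter chains. Acaa2, the matrix 3-ketoacyl-CoA thiolase, had 90.7 TPM in replicate 2 and 44.8 TPM in replicate 1, the widest gap in the set relative to its level. Hadh, the short-chain hydroxyacyl-CoA dehydrogenase, had 68.7 TPM in replicate 2 and 44.4 TPM in replicate 1. Echs1, the short-chain enoyl-CoA hydratase, had 65.9 TPM in replicate 2 and 53.9 TPM in replicate 1. Replicate 2 was the higher library in all 3, and Acaa2 and Hadh, nearly level with each other in replicate 1, were apart in replicate 2. Acat1, the acetoacetyl-CoA thiolase that also serves ketone and isoleucine breakdown, had 59.3 TPM in replicate 2 and 50.6 TPM in replicate 1. Hsd17b10, another hydroxyacyl-CoA dehydrogenase and a part of mitochondrial RNase P, had 45.8 TPM in replicate 2 and 42.9 TPM in replicate 1, and it was the only member on chromosome X. Acaa1a, the peroxisomal thiolase, had 15.61 TPM in replicate 2 and 15.6 TPM in replicate 1.

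Unsaturated fatty acids need further enzymes to move or reduce their double bonds. Ech1, a dienoyl-CoA isomerase, led them with 99.4 TPM in replicate 2 and 75.3 TPM in replicate 1. Eci1, the mitochondrial enoyl-CoA isomerase, had 69.2 TPM in replicate 2 and 48.3 TPM in replicate 1. Eci2, an isomerase also found in peroxisomes, had 35.7 TPM in replicate 2 and 33.3 TPM in replicate 1. Decr1, the dienoyl-CoA reductase, was the lowest of the 4 in both libraries, with 28.7 TPM in replicate 2 and 22.2 TPM in replicate 1.

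Thioesterases release free fatty acid from acyl-CoA. Acot13, which acts at mitochondria on medium and long chains, had 66.9 TPM in replicate 2 and 52.2 TPM in replicate 1. Acot2, the mitochondrial type I enzyme, had 7.44 TPM in replicate 2 and 7.28 TPM in replicate 1. Acot1, its cytosolic neighbour, had 1.45 TPM in replicate 2 and 1.58 TPM in replicate 1, from 39.3 counts in replicate 2 and 44.6 counts in replicate 1. Acot13 stood far above the other 2 in both libraries.

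Most of the pathway was higher in replicate 2. Of the 34 genes, 29 had a log2 ratio above 0, against 49.8% of the 12969 genes with at least 50 counts over both libraries, and the median was 0.42 for the set against 0.00 over all those genes (-0.001 before rounding). The counting interval lay wholly above a ratio of 1 for 25 genes, against 24.1% of all genes, and wholly below it for 1, Acsl6, against 22.3%. Intervals narrow as counts rise, and 24 of the 34 genes were in the top 10% of nuclear protein-coding genes by mean TPM. The shares over all genes tested, which needed only 50 counts, are therefore not a like background for these interval calls. The differences were modest. Acaa2 was the only gene at least 2-fold higher, against 2.7% of all genes, and none was at least 2-fold lower, against 1.94%. In bulk tissue, fewer cells of a type and less RNA per cell cannot be told apart.

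**Figure D2:**
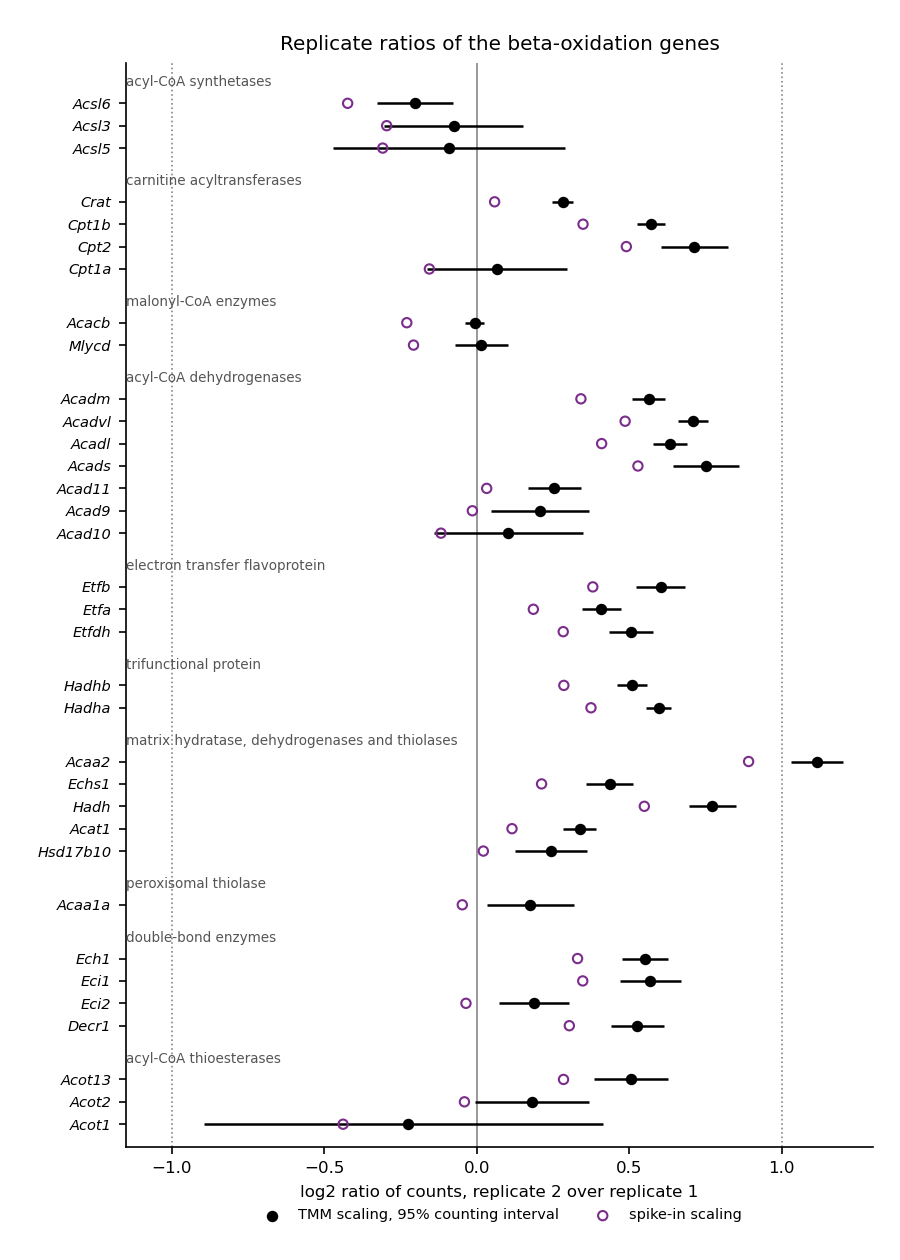
Log2 ratio of counts, replicate 2 over replicate 1, for the 34 genes by role, with filled circles and 95% counting intervals for TMM scaling and open circles for spike-in scaling. Dotted lines mark a 2-fold difference, which Acaa2 passes under TMM scaling and not under spike-in scaling.

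Acaa2 had 3616 counts in replicate 2 and 1635 counts in replicate 1, a ratio of 2.17 (95% interval 2.04 to 2.3). It stood just inside the 2-fold mark. Hadh, just outside it, had 3840 counts in replicate 2 and 2201 counts in replicate 1, a ratio of 1.71 (1.62 to 1.8). Acads followed with a log2 ratio of 0.75, Cpt2 with 0.71 and Acadvl with 0.71.

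Ratios varied by role. The acyl-CoA dehydrogenases had a median log2 ratio of 0.56, and all 7 were above 0, the lowest being Acad10 at 0.10. The 3 genes of the electron transfer flavoprotein had log2 ratios of 0.60 for Etfb, 0.51 for Etfdh and 0.41 for Etfa. The trifunctional subunits had 0.60 for Hadha and 0.51 for Hadhb, and their intervals of the fold met between 1.47 and 1.472. The 5 matrix enzymes were all above 0 with a median of 0.44, and the 4 double-bond enzymes were all above 0 with a median of 0.54. The ratio of Eci2, 0.19, was the lowest of the double-bond enzymes.

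Transport and its control did not share 1 value. Cpt1b had a log2 ratio of 0.57 and Cpt2 one of 0.71, while Crat had 0.28 and Cpt1a 0.07, with an interval for Cpt1a that held 1. Acacb, with 18497 counts in replicate 2 and 18200 counts in replicate 1 before scaling, had a log2 ratio of -0.01 and a fold interval of 0.975 to 1.02. Mlycd had 0.02. Among the synthetases all 3 were below 0, with Acsl3 at -0.07, Acsl5 at -0.09 and Acsl6 at -0.20. Acsl6 had 1018 counts in replicate 2 and 1147 counts in replicate 1, a fold of 0.869 (0.798 to 0.947). Acot1 had the lowest log2 ratio, -0.23, on few counts and with an interval that held 1.

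Scaling moved these values. Scaling by the spike-in totals shifted the log2 ratio of the median gene by -0.22. On that scale 22 members were above 0, against 23.6% of all genes, and the median of the set was 0.20. No member was then at least 2-fold higher, against 1.88% of all genes, or at least 2-fold lower, against 3.39%, and Acaa2 stood at 0.89. Cpt1a, Mlycd, Acad9, Acad10, Acaa1a, Eci2 and Acot2 went below 0 under spike-in scaling. By kallisto counts, 30 members were above 0, against 50.3% of all genes, and 1 was at least 2-fold higher, against 2.66%, while none was 2-fold lower, against 1.99%. TPM and counts also differed in order for 4 members. The TPM of Cpt1a, Mlycd and Acad10 was lower in replicate 2 while the log2 ratio of counts was above 0, and that of Acsl3 was higher in replicate 2 while its log2 ratio was below 0.

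Markers of the fibre types differed between the same libraries. The muscle fibre genes were abundant, with Acta1, the skeletal actin, at 23051 TPM in replicate 2 and 21825 TPM in replicate 1. All 10 slow fibre markers, led by Myl2, Myh7 and Tnnt1, were at least 2-fold higher in replicate 2, with log2 ratios between 1.74 and 2.86, and their summed level was 2596 TPM in replicate 2 and 507 TPM in replicate 1. The 2 myosins of IIA and IIX fibres, Myh2 and Myh1, had a median log2 ratio of 1.43. Of 10 fast fibre markers, 6 were above 0 and none was 2-fold apart, and their summed level was 88060 TPM in replicate 2 and 96237 TPM in replicate 1. Mb, the oxygen store of oxidative fibres, had 2283 TPM in replicate 2 and 873 TPM in replicate 1. All 17 genes of oxidative phosphorylation, led by Atp5b, Atp5a1 and Cox6a2, were above 0, their median log2 ratio was 0.53, and Cox7a1 was past 2-fold at 1.05. The 12 genes of glycolysis, led by Aldoa, Gapdh and Pygm, had a median of 0.19. Under spike-in scaling the medians of the fast fibre genes and of glycolysis were -0.17 and -0.03. The part of fibre content in the ratios of the beta-oxidation genes was not tested.

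Markers of other cells were low beside the muscle genes. The 8 adipocyte genes summed to 274 TPM in replicate 2 and 177 TPM in replicate 1, and the 7 tested were above 0 with a median of 0.43. Lpl, which muscle fibres express too, made up most of that difference, with 148 TPM in replicate 2 and 65.4 TPM in replicate 1. Of the 3 hepatocyte genes, Apoa1 and Ttr had no counts and Alb had 4 counts in replicate 2 and none in replicate 1, and of the 3 brown adipocyte genes Ucp1 and Elovl3 had no counts. The 5 endothelial genes summed to 42.0 TPM in replicate 2 and 52.6 TPM in replicate 1, the 4 fibroblast genes to 176 TPM in replicate 2 and 161 TPM in replicate 1, and the 4 macrophage genes to 8.63 TPM in replicate 2 and 10.03 TPM in replicate 1. Of the fibroblast genes, Col3a1 and Col1a1 were at least 2-fold higher in replicate 2, while Dcn, the most abundant of them, had a log2 ratio of -0.19 and Pdgfra one of 0.10. Of the macrophage genes, Cd68 was at least 2-fold lower, on 20 counts in replicate 2 and 49 counts in replicate 1. Its fold interval, 0.225 to 0.685, reached past the 2-fold mark. Adgre1 had a log2 ratio of -0.61 on 38 and 58 counts, C1qa one of 0.01 and C1qb one of 0.24. The part of these cells in the ratios was not tested.

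**Figure D3:**
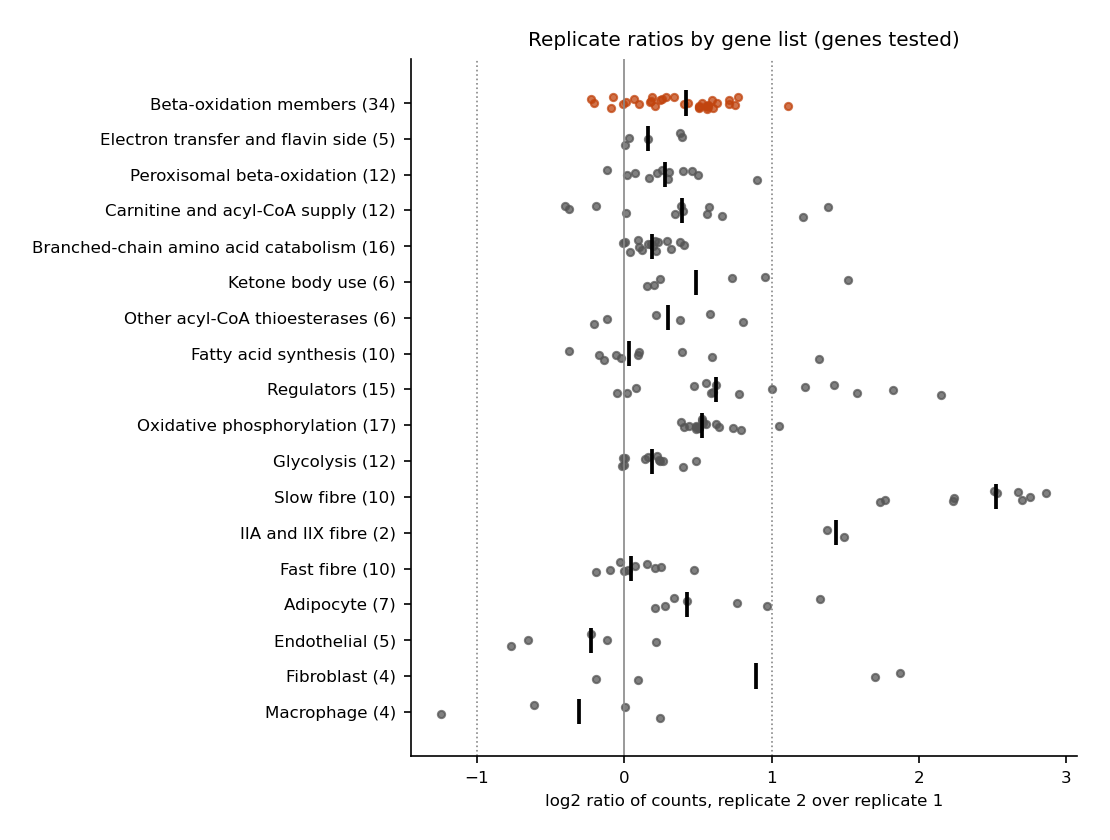
Log2 ratio of counts, replicate 2 over replicate 1, for every tested gene of the beta-oxidation set and of 17 other lists, with a bar at each list's median and the number of genes in brackets. The slow fibre genes sit between 1.74 and 2.86, above all beta-oxidation genes, and dotted lines mark a 2-fold difference.

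Transcript estimates split the TPM of each member over its annotated isoforms. In 15 of the 34 genes 1 transcript took at least 90% of the gene's RSEM TPM, and in 19 it took less. Acot13, Hadh and Echs1 were among the uniform ones, each with at least 98.3% in 1 transcript by either estimator in the mean of both libraries. Acot13 and Hadh have 2 annotated transcripts each. Acot2 has only 1, so its share of 100% and its top transcript by both estimators were fixed by the annotation. By the mean of both libraries, RSEM and kallisto put the same transcript first in 30 genes, all but Crat, Hadhb, Hsd17b10 and Eci2. In single libraries kallisto also put another first in Acot1 in replicate 2, where Acot1-204 had 0 TPM, and in Acsl3 in replicate 1. The median top share was 88.0% by RSEM and 75.1% by kallisto.

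The trifunctional genes were split over several transcripts, in Hadha alike by both estimators and in Hadhb not. Hadha-201, annotated as a processed transcript without a coding frame, took 74.1% of the TPM of Hadha in replicate 2 and 74.2% in replicate 1, and 78.1% by kallisto in the mean of both. The protein-coding Hadha-205 had 23.8 TPM in replicate 2 and 17.8 TPM in replicate 1. In Hadhb, RSEM put first the protein-coding Hadhb-201, with 41.7% in replicate 2 and 48.2% in replicate 1. Kallisto put first Hadhb-208, a retained intron of 507 bases, with 58.8% in replicate 2 and 55.5% in replicate 1, and gave Hadhb-201 8.4%. The split between the transcripts of Hadhb was therefore not settled by these data.

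Among the carnitine genes, Crat-201 took 53.1% of the TPM of Crat in replicate 2 and 51.3% in replicate 1, while kallisto put the shorter protein-coding Crat-202 first with 43.1% in the mean. Cpt1b-201 took 84.6% in replicate 2 and 86.1% in replicate 1, and Cpt2-201 took 74.1% in replicate 2 and 69.9% in replicate 1. Acsl6-205 took 72.6% in replicate 2 and 40.1% in replicate 1, the widest gap between the libraries among the 14 genes shown, and by kallisto it took 46.8% in replicate 2 and 37.7% in replicate 1. In Crat, Cpt1b and Cpt2 the 2 libraries lay close together.

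In the dehydrogenases, Acadm-201 took 71.2% in replicate 2 and 66.9% in replicate 1, with 28.8% and 33.1% of the gene in noncoding transcripts in replicate 2 and replicate 1. By kallisto, Acadm-201 took 85.9% in the mean, and noncoding transcripts took 3.4% in replicate 2 and 4.8% in replicate 1. Acadvl-202 took 86.6% in replicate 2 and 89.9% in replicate 1 by RSEM, and 47.1% in the mean by kallisto. Acad9-201 took 35.5% in replicate 2 and 44.7% in replicate 1. The leading transcript of Acad10, Acad10-206, is annotated as a retained intron of 869 bases and took 65.3% of the TPM in the mean. Its share of the counts, which are not corrected for length, was 30.2% by RSEM and 30.0% by kallisto. By counts, the protein-coding Acad10-202 took 42.0% by RSEM, and the protein-coding Acad10-201 took 61.9% by kallisto. Hsd17b10 was given almost wholly to Hsd17b10-201 by RSEM, at 98.8%, and mostly to Hsd17b10-204, a processed transcript, by kallisto, at 66.4%. Eci2-211 took 51.8% in the mean by RSEM and 1.1% by kallisto. In Acaa2, Acaa1a, Ech1 and Eci1 the leading protein-coding transcript took 82.4%, 87.9%, 88.1% and 79.6% in the mean. By kallisto, the same transcripts took 83.8%, 51.1%, 99.0% and 69.5%.

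**Figure D4:**
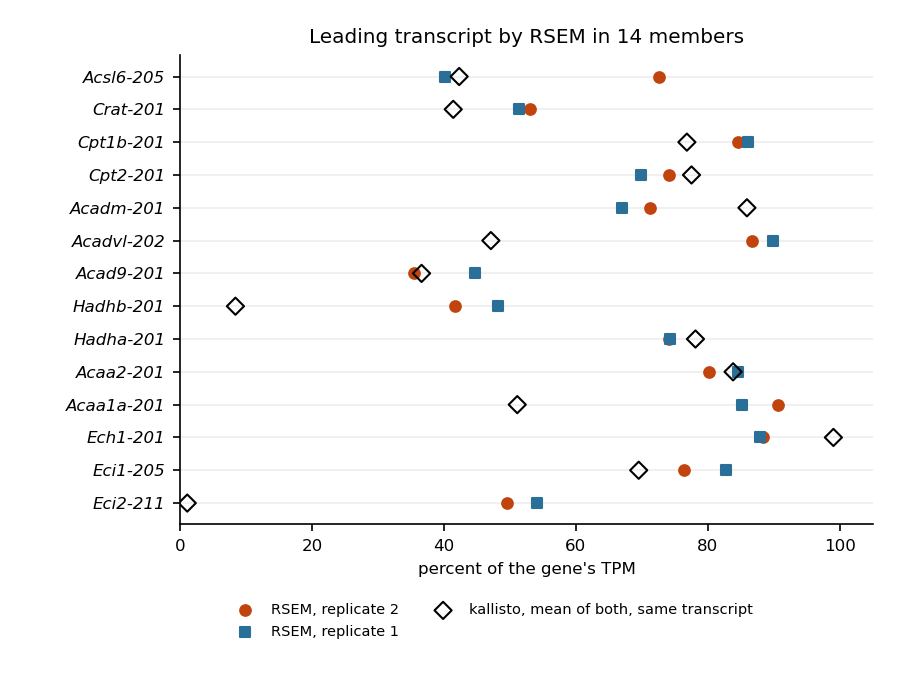
Percent of the gene's TPM taken by the leading transcript in 14 members at or above 10 TPM whose leading transcript took under 90%, by RSEM in replicate 2 (circles) and replicate 1 (squares), with the kallisto mean of the same transcript as diamonds. The estimators lie farthest apart in Eci2-211, at 51.8% by RSEM and 1.1% by kallisto.

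Kallisto TPM ran above RSEM TPM, by a median factor of 1.38 over the set and 1.34 over the tested nuclear protein-coding genes, while its counts were nearly equal, with a median factor of 1.02. The choice of estimator therefore mattered little to the counts of the set as a whole. When only protein-coding transcripts were summed, the kallisto TPM of Hadha was 33.2 in replicate 2 and 27.1 in replicate 1, and that of Hsd17b10 was 21.9 in replicate 2 and 19.3 in replicate 1.

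**Figure D5:**
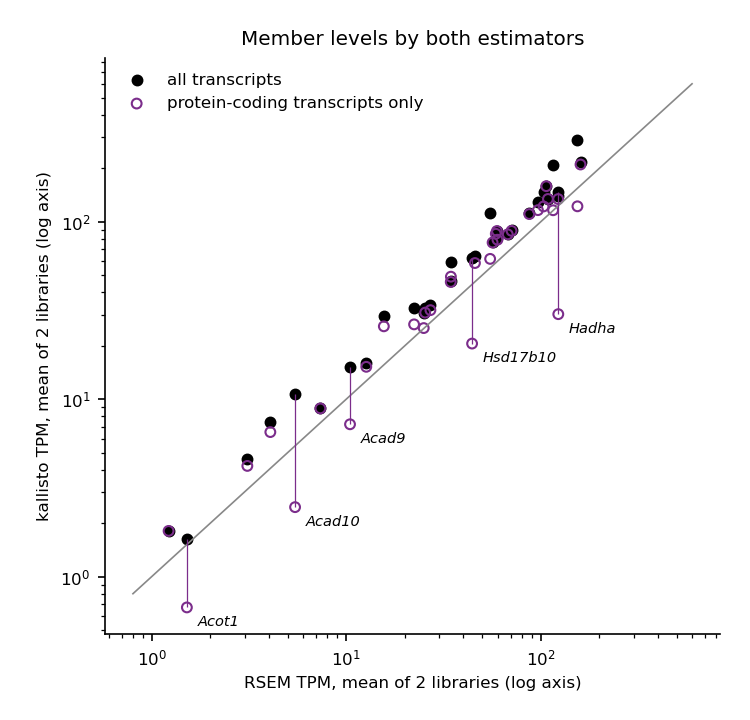
Mean kallisto TPM against mean RSEM TPM of the 34 genes on log axes, over all transcripts (filled) and over protein-coding transcripts only (open), with the line of equal values. The 5 named genes drop when noncoding transcripts are left out, Hadha and Hsd17b10 the most among the abundant ones.

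Some members share sequence with other genes, so their counts carry that uncertainty. Hadhb matched the processed pseudogene Gm13910 at 99.8% identity over 1428 bases, and Gm13910 was given 925 counts in replicate 2 and 579 counts in replicate 1, beside 8412 counts in replicate 2 and 5791 counts in replicate 1 for Hadhb. Cpt1b lies within Gm44502, annotated as a separate protein-coding gene that is identical to it over 1841 bases. RSEM gave Gm44502 no counts in replicate 2 and 65.1 counts in replicate 1, and kallisto gave it 1539 counts in replicate 2 and 1172 counts in replicate 1. Acot1 and Acot2 matched each other at 95.1% over 1274 bases. Acad10 matched Acad12 at 95.3% over 1614 bases, and Acad12 had 1446 counts in replicate 2 and 1179 counts in replicate 1, more than Acad10 itself with 293 counts in replicate 2 and 267 counts in replicate 1. Acaa1a matched Acaa1b, which had 33.7 counts in replicate 2 and 10.2 counts in replicate 1. Acad9 matched the noncoding gene AC160336.1 at 96.9% over 1008 bases, among other partners. AC160336.1 had 283 counts in replicate 2 and 608 counts in replicate 1, beside 696 and 590 counts for Acad9. Acad9 also matched Gm43079 at 99.8% over 532 bases, and Gm43079 had 41.5 counts in replicate 2 and 32.7 counts in replicate 1. Etfb matched Gm45233, which had few counts, at 99.7% over 626 bases. Acsl6 overlaps the antisense gene Gm12224, which had 760.0 counts in replicate 2 and 560.0 counts in replicate 1. Whether counting used strand is not given in the sources used here, so Acsl6 and Gm12224 may share reads. Acsl5 likewise overlaps Zdhhc6 on the opposite strand, which had more counts, 581 in replicate 2 and 579 in replicate 1 beside 115.0 in replicate 2 and 120.0 in replicate 1 for Acsl5.

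Genes next to the set in the pathway were described by the lists fixed for this purpose. Supply genes take up, bind and activate fatty acids or carry carnitine. Their median log2 ratio was 0.39, 9 of the 12 were above 0, and Fabp3 and Slc22a4 were at least 2-fold higher. Over all genes tested, 49.8% were above 0 and 2.7% were at least 2-fold higher. Fabp3, the muscle fatty acid binding protein, had 269 TPM in replicate 2 and 114 TPM in replicate 1. Acsl1 had 118 TPM in replicate 2 and 84.4 TPM in replicate 1, far above Acsl3, Acsl5 and Acsl6, and Cd36, a fatty acid transporter, had 109.7 TPM in replicate 2 and 82.9 TPM in replicate 1. Slc22a4, a carnitine transporter relative, was at 1.26 TPM in replicate 2 and 0.59 TPM in replicate 1.

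In the peroxisome list, 11 of 12 tested genes were above 0, with a median of 0.28 and none 2-fold apart. Under spike-in scaling the median of this list was 0.06, and some of its counting intervals under TMM held a ratio of 1. Over all genes tested, 49.8% were above 0, 2.7% were at least 2-fold higher and 1.94% were at least 2-fold lower. Phyh, the phytanoyl-CoA hydroxylase, led with 88.0 TPM in replicate 2 and 52.5 TPM in replicate 1, followed by Scp2 at 62.1 TPM in replicate 2 and 59.2 TPM in replicate 1. Of the thioesterases outside the set, 6 of 11 had enough counts to be tested and 4 of these were above 0. The most abundant, Acot9, Acot7 and Acot11, had log2 ratios of -0.21, 0.58 and 0.81. The 5 genes that serve the electron transfer flavoprotein or its flavin were all above 0, with a median of 0.16, led by Etfrf1 at 25.2 TPM in replicate 2 and 21.2 TPM in replicate 1 and followed by Flad1, which makes the flavin, and Etfbkmt. Under spike-in scaling the median of these 5 genes was -0.05.

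Of the 15 genes in the list of regulators, 14 were above 0, against 49.8% of all genes tested, and 6 were at least 2-fold higher in replicate 2, against 2.7%. The list is broad, and those 6 include Ucp3, a carrier, and Pdk4, which acts on pyruvate dehydrogenase. The median log2 ratio of the 15 genes, 0.63, stood beside 0.42 in the beta-oxidation set, and under spike-in scaling 0.40 stood beside 0.20. Ppara, the nuclear receptor that drives beta-oxidation genes in liver and muscle, had 9.73 TPM in replicate 2 and 1.94 TPM in replicate 1. Pdk4, which holds back pyruvate dehydrogenase, had 575 TPM in replicate 2 and 172 TPM in replicate 1. The estrogen-related receptors Esrrg and Esrrb had log2 ratios of 1.58 and 1.22, Ucp3, a mitochondrial carrier, 1.43, and Klf15, a factor of the fasting response, 1.00. Klf15 was barely past the 2-fold mark, with a fold of 2.007 (1.87 to 2.155). Nr4a1 and Prkaa2, the other abundant genes of the list, had 0.63 and 0.08. No beta-oxidation enzyme had a log2 ratio as high as those of Ppara, Pdk4, Esrrg, Ucp3 and Esrrb.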

How the data were processed

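Each library came with gene and transcript tables that the authors deposited. Per the file headers, the expected counts and TPM of genes and transcripts are in RSEM's format, and the estimated counts and TPM of a further deposited transcript table are in kallisto's. The posterior standard deviation of an expected count and the posterior mean TPM were also deposited by the authors. Notes deposited with each library name the build mm10 and the annotation GENCODE M21. Neither the aligner nor any version is given in the sources used here.

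Transcript values of kallisto were added up by gene. The ratio of replicate 2 over replicate 1 was computed in R 4.3.3 with edgeR 4.0.16. Expected counts were rounded, spike-in, tRNA and phiX entries were left out, genes needed 50 counts or more over both libraries, and TMM-scaled log2 CPM used a prior count of 2. DESeq2 1.42.0 supplied other size factors. The 95% intervals are exact conditional binomial intervals and, as there are no molecular identifiers, carry counting error alone. A floor of 3 counts is 0.0686 CPM in replicate 2 and 0.0776 CPM in replicate 1. The ratio step was tested on simulated counts. Partners that share sequence were found with blastn among annotated transcripts, at 95% identity or more over at least 250 bases. Promoter windows are those of RefSeq on GRCm38.p6. Remaining steps ran in Python 3.11.15 with numpy 2.4.6, scipy 1.17.1 and pandas 2.3.3.

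The members, the gene lists and the rule for named genes were chosen with earlier results of these data known. The rule names all members and, of each pathway list, the 3 of highest mean TPM, those without counts and those past 2-fold. A gene that this rule would name is not reported here. Isoforms are named for members at or above 10 TPM whose top transcript takes under 90%. Sequence partners, overlapping genes, the isoforms of Acad10, Hsd17b10, Acot1 and Acsl3, and some marker genes were named after their values were seen. Each result was recomputed with other scalings, filters and prior counts, with other expression estimates, and without each library.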

Additional observations from a re-analysis of the deposited data

How the results depend on the processing

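The levels depended on the estimator and on what TPM is taken over. The median member TPM of 49.5 was 69.4 by kallisto and 107.4 when RSEM TPM was rescaled over nuclear protein-coding genes, and the summed TPM of 1928 was 2762 by kallisto and 4184 when rescaled. With 1 library left out the median ran between 43.7 and 55.4 TPM, the sum between 1688 and 2169 TPM, and the top transcript share between 87.0% and 89.5%. The top transcript share of 88.0% was 75.1% by kallisto. The count of 34 members at 1 TPM or more was 33 by kallisto, where Acot1 had 0.797 TPM in replicate 2. Kallisto TPM over protein-coding transcripts, a setting chosen after seeing the data, gave a median of 53.7 TPM and a sum of 2182 TPM. The Cpt1b share of Cpt1a and Cpt1b TPM was 97.1% and lay between 96.4% and 97.9% in every setting run.

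The median log2 ratio of 0.42 was 0.20 under spike-in totals and 0.27 under total counts without TMM, and in both of these no member was 2-fold higher, against 1 otherwise. It lay between 0.41 and 0.46 in the other settings run. Between 22 and 30 members were above 0. Signs differed from TMM in 7 members under spike-in totals, in 3 under total counts, and in 1, Acacb, by kallisto counts and with count minimums of 10 and 1. At a count minimum of 500, Acsl5 and Acot1 dropped out. The cause of these shifts was not tested. Leaving out a library leaves no ratio to compute. No paired analysis was possible because there is 1 group. At this depth the counting interval of a ratio was wide in Acot1, from 0.538 to 1.33, and it covers counting error only.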

Other observations

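Genes that use other acyl-CoA substrates were measured in the same libraries. Of 16 genes for the breakdown of branched-chain and other amino acids, 15 had a log2 ratio above 0, against 49.8% of all genes tested, with a median of 0.19 and none 2-fold apart, but under spike-in scaling the median was -0.03. Acadsb, the short branched-chain acyl-CoA dehydrogenase, led them with 83.8 TPM in replicate 2 and 96.95 TPM in replicate 1, followed by Ivd, the isovaleryl-CoA dehydrogenase, at 72.0 TPM in replicate 2 and 54.9 TPM in replicate 1. Bckdha, a subunit of the branched-chain ketoacid dehydrogenase, had 58.8 TPM in replicate 2 and 52.1 TPM in replicate 1.

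All 6 genes of the ketone body list were above 0, against 49.8% of all genes tested. Their median was 0.49, and 0.27 under spike-in scaling, and some of their counting intervals held a ratio of 1. Oxct1, which activates acetoacetate for oxidation, had 149 TPM in replicate 2 and 75.1 TPM in replicate 1. Bdh1, the hydroxybutyrate dehydrogenase of mitochondria, was at least 2-fold higher, with 26.9 TPM in replicate 2 and 11.6 TPM in replicate 1. Hmgcs1, a synthase of the sterol pathway, had 10.4 TPM in replicate 2 and 9.93 TPM in replicate 1.

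Of 10 fatty acid synthesis genes, 5 were above 0 and 5 below, with a median of 0.04, and of -0.19 under spike-in scaling. Fasn, the fatty acid synthase, was at least 2-fold higher, with 7.48 TPM in replicate 2 and 3.06 TPM in replicate 1. Srebf1, a factor that drives lipid synthesis genes, had 14.2 TPM in replicate 2 and 18.2 TPM in replicate 1. Mcat and Mecr, both of mitochondrial fatty acid synthesis, had log2 ratios of -0.17 and -0.13.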
